A study of Mus musculus with 12 samples.

Results

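The genes described are 9 components of the sarcomere and of its Z-disc: *Ttn*, *Neb*, *Actn2*, *Actn3*, *Xirp1*, *Xirp2*, *Ankrd1*, *Ankrd2* and *Csrp3*. They were chosen by symbol, with earlier results of these data known, and are 9 of the 55367 symbols listed for each sample. RNA was measured in isolated fibers of the extensor digitorum longus (EDL) muscle, a fast hindlimb muscle, in 3 groups of 4 samples. The young group came from mice aged 3–4 months. Both aged groups, called Fluo-4 normal and abnormal here, came from mice aged 26–28 months. The study's methods name C57BL/6J mice and obtained the aged mice from a separate source, its text calls the aged mice male, and the sex of the young mice is not given in the sources used here. The labels name no transgene or treatment for any of the 3 groups. Fluo-4 is a calcium indicator dye, and aged fibers were separated by hand under a fluorescence stereomicroscope into those with a normal and those with an abnormal Fluo-4 pattern. Abnormal fibers hold structures like tubular aggregates, which are arrays of tubules from the sarcoplasmic reticulum. The groups were set by this staining pattern, and the sources do not give how many fibers or mice stand behind 1 sample. Replicates may therefore share mice, and p-values measure the spread between these samples.

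The sarcomere is the contractile unit of muscle, bounded at each end by a Z-disc in which alpha-actinin cross-links the thin filaments. Titin spans from the Z-disc to the M-band as a molecular spring, and nebulin runs along the thin filament. Xin-repeat proteins, muscle ankyrin-repeat proteins and the LIM protein encoded by *Csrp3* sit at or near the Z-disc and the titin spring, and several of their genes are known to respond to stretch, load or injury.

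Values are TPM, each gene's share of the transcripts of a sample scaled to a total of 1000000, a unit corrected for gene length and for the total of each sample, so that levels of different genes can be compared. The number of reads behind each value is unknown. Differences are on the scale of log2(TPM + 1), which understates changes of genes near 1 TPM, and a gene was called changed when its p-value, adjusted by the Benjamini-Hochberg method over the 14427 genes tested with limma, was under 0.05. All 9 genes passed the filter on low values. Between 16841 and 17936 symbols were above 0 TPM in each sample. The defining fast-fiber genes were present, with *Acta1* at a mean of 41848 TPM and *Myh4* at 9648 TPM in young samples. Fluo-4 normal replicate 1 stood apart: it was the lowest of its group for 8 of the 9 genes, *Ttn* being the exception, and it had the lowest TMM-type scaling factor of the 12 samples, at 0.833.

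In GRCm39 coordinates, *Ttn* lies at chr2:76534136-76812891, *Neb* at chr2:52026659-52268486, *Actn2* at chr13:12281303-12356693, *Actn3* at chr19:4911215-4928529 and *Xirp1* at chr9:119842821-119852664. *Xirp2* lies at chr2:67004178-67356962, *Ankrd1* at chr19:36089352-36097506, *Ankrd2* at chr19:42024274-42033552 and *Csrp3* at chr7:48480142-48497901. *Xirp2* and *Ankrd2* are on the plus strand and the others on the minus strand. The canonical transcripts range from 1003 bases for *Csrp3* to 107543 bases in 347 exons for *Ttn*. The libraries keep no strand, so reads from genes that overlap on opposite strands cannot be told apart. *Actn3* overlaps the protein-coding gene *Ctsf* by 4772 bases, and *Ctsf* had a mean of 21.4 TPM, against at least 3246 TPM for *Actn3* in any sample. *Ttn*, *Neb*, *Xirp2* and *Ankrd1* overlap non-coding genes, none of which had a mean above 0.386 TPM where listed. None of the 9 transcripts had a near-identical copy over most of its length, and an *Actn2* stretch of at most 154 bases matched 40 other genes.

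Short stretches before the RefSeq start are shown for 3 genes that were called changed in at least 1 comparison. RefSeq promoter sequences (table build GRCm38.p6, 250 bases before the start) were listed for 6 of the 9 genes, and each matched GRCm39 at 1 place. *Neb*, *Actn3* and *Xirp1* were not among them. Motifs searched on both strands were the M-CAT element CATTCC, bound by TEAD factors, the E-box CANNTG, bound by basic helix-loop-helix factors such as MyoD, its form CACGTG, and the MEF2 element. Capitals mark the match, and GENCODE places each stretch in the first, untranslated exon of a longer transcript.
Ankrd1 M-CAT, 210 bases before the start, chr19:36097441-36097462, minus strand: ctgccaaaGGAATGaccctctc
Ankrd1 M-CAT, 123 bases before the start, chr19:36097354-36097375, minus strand: ctaagtctGGAATGaaaattca
Actn2 E-box, 84 bases before the start, chr13:12355684-12355705, minus strand: gccaaccaCACGTGttggagac
Actn2 E-box, 48 bases before the start, chr13:12355648-12355669, minus strand: gccggcagCACGTGactctcag
Ankrd2 E-box pair, 140 and 127 bases before the start, chr19:42024321-42024349, plus strand: ggtgaCAGGTGggggaggCAGGTGgagag
*Ankrd1* was the one gene of the 6 with an M-CAT match, and it had 2, where 12.6% of 27025 mouse promoter windows of the same length held at least 1. *Actn2* was the one gene of the 6 with CACGTG, also with 2 matches, and 6.0% of windows held this form. CANNTG was in all 6 windows and in 66.0% of all windows. A MEF2 match, found in 3.0% of windows, was in those of *Ttn* and *Xirp2*.

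In young fibers the 9 genes covered about 3 orders of magnitude. *Actn3* was the highest, at 4821 ± 240 TPM (mean ± SD, n = 4), followed by *Neb* at 1309 ± 164 TPM, *Ttn* at 858 ± 161 TPM, *Actn2* at 166 ± 16 TPM, *Xirp2* at 94.4 ± 13.0 TPM and *Xirp1* at 51.9 ± 12.6 TPM. *Ankrd1* at 10.3 ± 3.0 TPM, *Ankrd2* at 4.82 ± 0.86 TPM and *Csrp3* at 2.52 ± 1.37 TPM closed the order. In young samples only the last neighbours, *Ankrd2* and *Csrp3*, had ranges that overlapped. In Fluo-4 normal fibers *Xirp1* stood before *Xirp2* and *Csrp3* before *Ankrd2*, and ranges overlapped for *Neb* and *Ttn* and for every neighbouring pair from *Xirp1* downwards. In Fluo-4 abnormal fibers *Xirp1*, at 151 ± 48 TPM, stood before *Actn2*, at 92.7 ± 25.3 TPM, and ranges overlapped for this pair, for *Neb* and *Ttn*, for *Actn2* and *Xirp2* and for *Csrp3* and *Ankrd2*. Together the 9 genes held 0.732% ± 0.049 of all TPM in young, 0.682% ± 0.138 in Fluo-4 normal and 1.06% ± 0.18 in Fluo-4 abnormal samples, most of it *Actn3*.

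**Figure D1:**
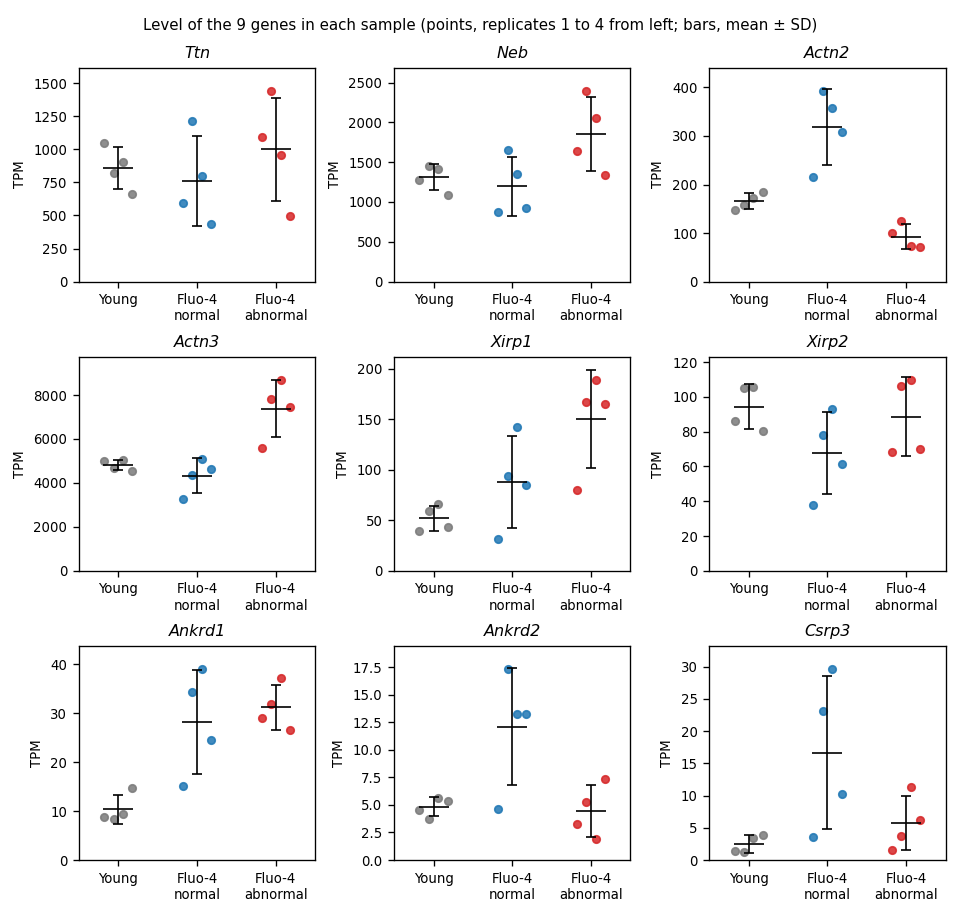
TPM (vertical axes, linear from 0) of each of the 9 genes in the young, Fluo-4 normal and Fluo-4 abnormal samples; points are samples in replicate order from left to right, and bars give mean ± SD of 4 samples. The 4 Fluo-4 abnormal samples lie below all others for *Actn2*, at 72.0 to 125 TPM, and above all others for *Actn3*, at 5587 to 8695 TPM.

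The comparison of Fluo-4 abnormal with Fluo-4 normal fibers asks what sets the abnormal fibers apart from neighbours of the same age. The 2 alpha-actinin genes moved in opposite directions, with *Actn2* lower and *Actn3* higher in abnormal fibers. *Ankrd2* was also lower, and 6 of the 9 genes did not pass the test. Thus 3 of 9 genes were called (1 higher, 2 lower), where 9.35% of all genes tested were called, 7.36% higher and 1.99% lower. Because the 9 genes and the lists below were chosen with earlier results known, such counts are a description and no independent test. The median difference of the 9 genes was 0.40, against 0.10 over all genes tested and 0.20 over the 5994 genes of at least 5 TPM. With TMM-type factors, which move the median over all genes tested to 0.00, the genome-wide split turned from 1062 higher and 287 lower to 358 higher and 564 lower, and the same 3 of the 9 genes were called in the same directions.

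*Actn2*, which encodes the alpha-actinin found in all fiber types, was measured at 215, 394, 358 and 308 TPM in the Fluo-4 normal samples, at 99.96, 125, 73.5 and 72.0 TPM in the Fluo-4 abnormal samples and at 148, 158, 173 and 184 TPM in the young samples. The 3 groups did not overlap at all, with young fibers between the aged groups. Non-overlap between abnormal and normal samples was seen in 14.0% of all genes. The difference was -1.77 (SE 0.19, 95% interval -2.19 to -1.36, adjusted p = 0.00049), and only 8 of the 14427 genes had a lower estimate. It kept its direction and its call in all 21 alternatives, between -2.05 and -1.26.

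*Actn3*, which encodes the alpha-actinin of fast fibers, was measured at 3246, 4349.7, 5099.7 and 4629 TPM in normal samples, at 5587, 7806, 8695 and 7454 TPM in abnormal samples and at 5018, 4694, 5027 and 4546 TPM in young samples. Every abnormal sample lay above every other sample, while normal and young samples overlapped. Abnormal fibers were higher by 0.77 (SE 0.15, 95% interval 0.45 to 1.09, adjusted p = 0.0073). The call was lost in 1 of 21 alternatives, a fit of only these 2 groups (adjusted p = 0.056).

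*Ankrd2*, a muscle ankyrin-repeat protein that binds the N2A region of titin, was measured at 4.66, 17.4, 13.2 and 13.2 TPM in normal samples, at 3.30, 5.24, 1.91 and 7.35 TPM in abnormal samples and at 4.56, 3.74, 5.67 and 5.32 TPM in young samples. The groups overlapped because normal replicate 1 fell among the abnormal samples. The difference was -1.25 (SE 0.36, 95% interval -2.02 to -0.48, adjusted p = 0.044). It was called in 9 of 21 alternatives, and leaving out any of 6 single samples lost the call (normal replicates 2, 3 or 4 or abnormal replicates 1, 2 or 3, adjusted p from 0.073 to 0.115).

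*Csrp3*, which encodes muscle LIM protein, was measured at 3.61, 23.1, 29.6 and 10.2 TPM in normal samples, at 1.52, 3.72, 11.4 and 6.26 TPM in abnormal samples and at 1.36, 1.31, 3.49 and 3.90 TPM in young samples. Its spread within the normal group was the widest of the 9 genes relative to the mean, and the aged groups overlapped. The difference of -1.29 (95% interval -2.52 to -0.05) was not called (adjusted p = 0.18). Without normal replicate 1 it was -1.82 with an adjusted p of 0.049.

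Among the genes with higher estimates in abnormal fibers, *Neb* differed by 0.65 (95% interval 0.20 to 1.10, adjusted p = 0.070), *Xirp1* by 0.88 (0.06 to 1.71, adjusted p = 0.16), *Xirp2* by 0.43 (-0.09 to 0.94, adjusted p = 0.28) and *Ttn* by 0.40 (-0.29 to 1.09, adjusted p = 0.47). None of these was called, and their intervals leave room for changes of unequal size. *Ankrd1* differed by 0.21 (95% interval -0.32 to 0.74, adjusted p = 0.62).

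**Figure D2:**
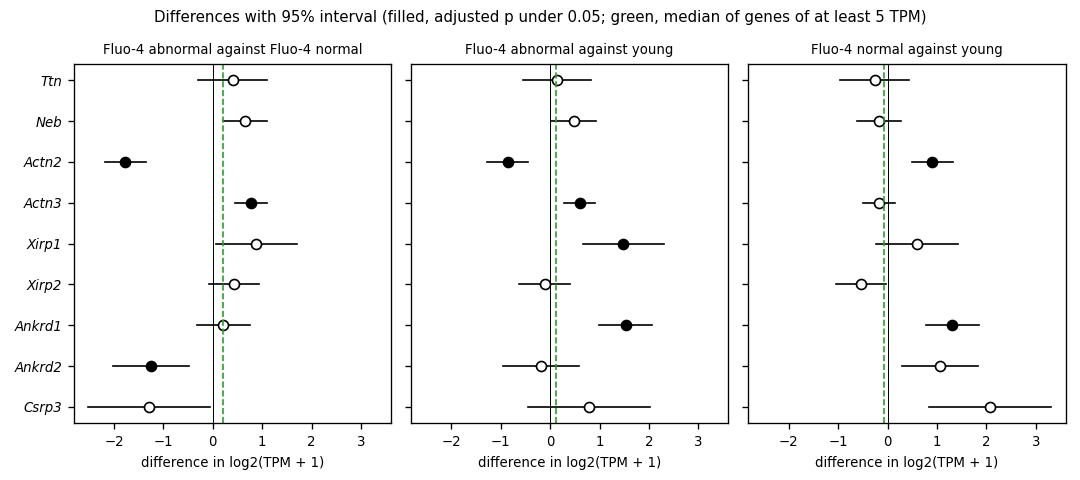
Difference in log2(TPM + 1) (horizontal axes) for each gene in the 3 comparisons, with 95% intervals; filled points have an adjusted p under 0.05 and the dashed green line is the median over genes of at least 5 TPM. *Actn2* lies at -1.77 between abnormal and normal fibers, at -0.86 between abnormal and young fibers and at 0.91 between normal and young fibers.

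Abnormal and normal samples with the same replicate number varied together across genes, so they were also compared pair by pair. *Actn2*, *Ankrd2* and *Csrp3* were lower in abnormal fibers in 4 of 4 pairs. *Actn3*, *Neb*, *Ttn*, *Xirp1* and *Xirp2* were higher in 4 of 4 pairs, and *Ankrd1* in 2 of 4. The share of all genes with the same direction in 4 of 4 pairs was not counted. Genes of at least 5 TPM had a median difference of 0.20, so a shared direction upwards is no result for an uncalled gene. The *Actn3* differences were nearly equal, from 0.69 to 0.84, whereas those of *Actn2* ran from -2.27 to -1.10. With the replicate number as a block, *Neb* (adjusted p = 0.020) and *Xirp1* (adjusted p = 0.034) were called higher, *Ankrd2* lost its call (adjusted p = 0.091), and 4 of the 9 genes were called. In that fit 7.97% of all genes tested were called.

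**Figure D3:**
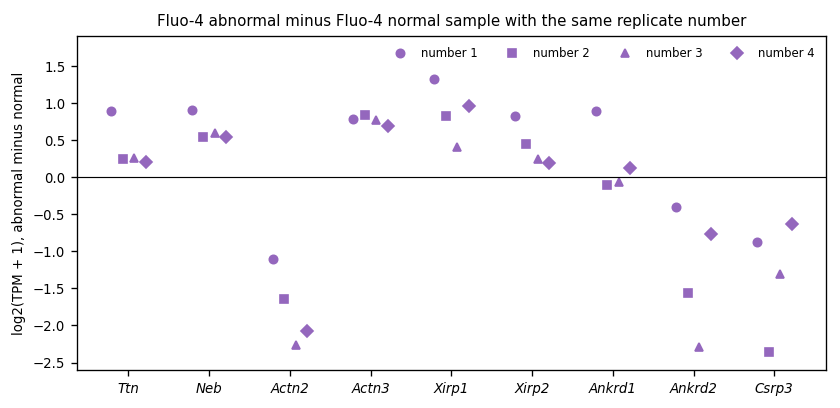
Fluo-4 abnormal minus Fluo-4 normal log2(TPM + 1) (vertical axis) for the 4 pairs of samples with the same replicate number, one marker shape per number. *Actn3* lies between 0.69 and 0.84 in all pairs, and pair 1 is the highest for *Ttn*, *Neb*, *Xirp1*, *Xirp2* and *Ankrd1*.

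The comparisons with young fibers ask what differs from young mice in each kind of aged fiber, and both use the same 4 young samples. The aged mice came from a separate source, so age and source cannot be told apart in these comparisons. In Fluo-4 abnormal against young fibers 4 of 9 genes were called (3 higher, 1 lower), where 8.50% of all genes were called, 6.09% higher and 2.41% lower. In Fluo-4 normal against young fibers 2 of 9 were called, both higher, where 1.15% of all genes were called, 0.561% higher and 0.589% lower.

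*Ankrd1*, the cardiac ankyrin-repeat protein and a well-known target of mechanical signalling, was higher in both aged groups. It was measured at 8.88, 8.40, 9.31 and 14.8 TPM in young samples, at 15.1, 34.3, 39.0 and 24.4 TPM in normal samples and at 29.0, 31.9, 37.1 and 26.6 TPM in abnormal samples. Every aged sample exceeded every young sample, although normal replicate 1, at 15.1 TPM, lay just above the highest young sample. Non-overlap with young samples was seen in 16.2% of all genes for abnormal and in 7.99% for normal fibers. Abnormal fibers were higher by 1.53 (SE 0.25, 95% interval 0.99 to 2.06, adjusted p = 0.0026), called in 21 of 21 alternatives. Normal fibers were higher by 1.31 (SE 0.25, 95% interval 0.78 to 1.85, adjusted p = 0.023), called in 13 of 21.

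*Actn2* was lower in abnormal than in young fibers, by -0.86 (SE 0.19, 95% interval -1.28 to -0.45, adjusted p = 0.015), and higher in normal than in young fibers, by 0.91 (SE 0.19, 95% interval 0.49 to 1.32, adjusted p = 0.042). The call against young fibers was lost for abnormal fibers without young replicate 4 (adjusted p = 0.055), and for normal fibers it held in 10 of 21 alternatives. *Actn3* was higher in abnormal than in young fibers by 0.60 (95% interval 0.28 to 0.92, adjusted p = 0.025), called in 13 of 21 alternatives and not with TMM-type factors (0.45, adjusted p = 0.071). Between normal and young fibers *Actn3* differed by -0.17 (95% interval -0.49 to 0.15, adjusted p = 0.68).

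*Xirp1*, which encodes Xin, an actin-binding protein of damaged and remodelling fibers, was measured at 39.6, 59.0, 65.9 and 43.0 TPM in young samples, at 31.1, 93.8, 142 and 84.9 TPM in normal samples and at 79.7, 167, 189 and 166 TPM in abnormal samples. All abnormal samples lay above the young samples, while normal samples spread across both. Abnormal fibers were higher than young fibers by 1.48 (SE 0.38, 95% interval 0.65 to 2.30, adjusted p = 0.030). The call held in 14 of 21 alternatives, and leaving out any of young replicates 1, 2 or 4 or abnormal replicates 2, 3 or 4 lost it (adjusted p from 0.054 to 0.090). Normal fibers differed from young fibers by 0.60 (95% interval -0.23 to 1.42, adjusted p = 0.57), called in 1 of 21 alternatives.

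Its relative *Xirp2* was measured at 86.2, 105, 106 and 80.4 TPM in young samples, at 38.0, 78.0, 92.9 and 61.2 TPM in normal samples and at 68.2, 106, 109.9 and 70.3 TPM in abnormal samples. The 3 groups overlapped. Against young fibers the difference was -0.11 (95% interval -0.62 to 0.40, adjusted p = 0.82) in abnormal and -0.54 (95% interval -1.05 to -0.03, adjusted p = 0.35) in normal fibers. Of 21 alternatives, 1 called *Xirp2* in abnormal and 2 in normal against young fibers.

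*Csrp3* and *Ankrd2* had high estimates in normal against young fibers that did not pass the test. *Csrp3* differed by 2.08 (SE 0.57, 95% interval 0.84 to 3.31, adjusted p = 0.11), which only 4 of the genes tested exceeded, and *Ankrd2* by 1.06 (95% interval 0.29 to 1.83, adjusted p = 0.19). Without normal replicate 1 both were called, at 2.61 (adjusted p = 0.026) and 1.42 (adjusted p = 0.035). The replicate block, which pairs normal and young samples by number alone, called *Csrp3* as well (adjusted p = 0.013). In abnormal against young fibers *Csrp3* differed by 0.79 (95% interval -0.44 to 2.02, adjusted p = 0.46) and *Ankrd2* by -0.19 (95% interval -0.96 to 0.58, adjusted p = 0.79).

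The giant filament proteins were not called in any of the 3 comparisons, although *Neb* was called between abnormal and normal fibers in 7 of 21 alternatives, the replicate block among them (adjusted p = 0.020). *Ttn* was measured at 1049, 817, 900.4 and 664 TPM in young samples, at 591, 1214, 802 and 433 TPM in normal samples and at 1094, 1444, 959.8 and 499 TPM in abnormal samples. *Neb* was measured at 1277, 1452, 1417 and 1089.7 TPM in young samples, at 871, 1648, 1353 and 919 TPM in normal samples and at 1639.9, 2399, 2055 and 1336 TPM in abnormal samples. Both genes were highest in replicate 2 of each aged group, and the groups overlapped. Against young fibers *Neb* differed by 0.48 in abnormal (95% interval 0.03 to 0.93, adjusted p = 0.19) and by -0.17 in normal fibers (adjusted p = 0.80), and *Ttn* by 0.14 (adjusted p = 0.84) and -0.26 (adjusted p = 0.80). With the replicate block *Neb* was called between abnormal and young fibers (adjusted p = 0.013), but the block pairs these groups by number alone.

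Their canonical transcripts are longer than 10000 bases. Of the 97 genes with a canonical transcript of at least 10000 bases and a mean of at least 5 TPM, 19 were called higher and 0 lower in abnormal against normal fibers, where 7.36% of all genes tested were called higher and 1.99% lower. Their median difference was 0.40, against 0.10 over all genes tested and 0.20 over the 5994 genes of at least 5 TPM. The shares called are over all genes tested, without that limit on level. After a trend on GC content and length together was removed, the estimates were 0.28 for *Neb*, 0.03 for *Ttn* and 0.08 for *Xirp2*. *Actn3* was then at 0.53 (adjusted p = 0.012), from 0.77 and its lowest value among the 21 alternatives, and *Actn2* at -2.05 (adjusted p = 5.9e-06). The part of transcript length in the *Neb* and *Ttn* values was not tested further.

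Ratios of 2 genes within a sample do not depend on how samples are scaled. They were compared by a two-sided exact permutation test over the 70 arrangements of 4 against 4 samples, whose smallest possible p is 0.0286, with 12 tests adjusted together. The ratio of *Actn3* to *Actn2* was 33.9, 29.8, 29.1 and 24.7 in young samples, 15.1, 11.1, 14.3 and 15.0 in normal samples and 55.9, 62.3, 118 and 103 in abnormal samples. The 3 groups were fully separated, and the log2 ratio differed by 2.56 between abnormal and normal, by 1.47 between abnormal and young and by -1.09 between normal and young fibers (exact p = 0.0286, adjusted p = 0.049, for each). *Actn2* therefore made up 3.33% ± 0.43 of the *Actn2* and *Actn3* TPM in young, 6.83% ± 0.99 in normal and 1.28% ± 0.45 in abnormal samples (SD, n = 4). The canonical transcripts of these genes were 72.5% identical over 3351 aligned bases.

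The ratio of *Ankrd2* to *Ankrd1* ran from 0.36 to 0.61 in young, from 0.31 to 0.54 in normal and from 0.05 to 0.28 in abnormal samples. It was lower in abnormal fibers than in normal fibers by 1.69 and than in young fibers by 1.89 on the log2 scale (differences of -1.69 and -1.89, exact p = 0.0286, adjusted p = 0.049), and the normal and young groups overlapped (-0.20, exact p = 0.46). These genes were 64.8% identical over 1203 aligned bases. The ratio of *Xirp1* to *Xirp2* was below 1 in all young samples (0.46 to 0.62), from 0.82 to 1.53 in normal and from 1.17 to 2.36 in abnormal samples. It exceeded the young ratio by 1.15 in normal and 1.61 in abnormal fibers on the log2 scale (exact p = 0.0286, adjusted p = 0.049), whereas the aged groups overlapped (0.46, exact p = 0.17). The exact p of *Ankrd2* to *Ankrd1* rose to 0.057 between abnormal and normal fibers without any 1 of the 4 normal samples, and between abnormal and young fibers without any 1 of the 4 young samples. That of *Xirp1* to *Xirp2* between normal and young fibers rose to 0.057 without any 1 of the 4 young samples, whereas the exact p of *Actn3* to *Actn2* stayed at 0.0286 in all 3 comparisons. A test of 4 against 3 samples has fewer arrangements, with 0.0286 as its smallest p and 0.057 as the next step. The groups of these comparisons did not overlap, so a rise by 1 step does not rank how firm the ratios are. The ratio of *Neb* to *Ttn* overlapped in every comparison (exact p from 0.23 to 0.66).

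**Figure D4:**
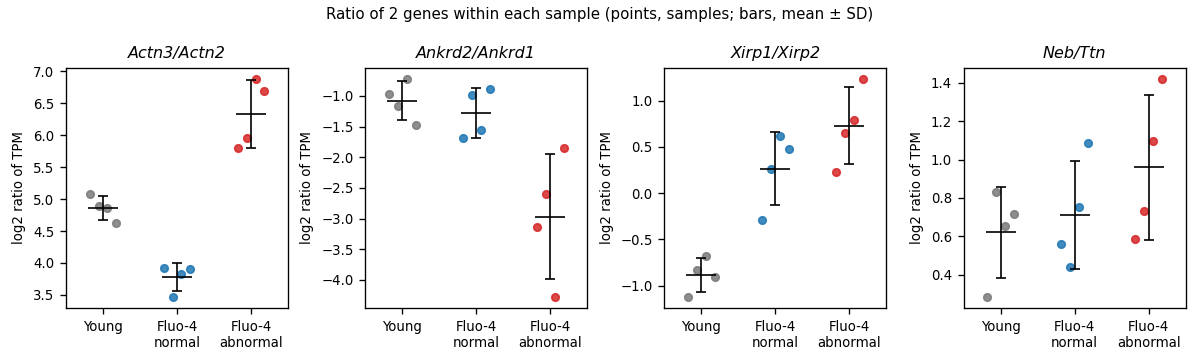
Log2 ratio of TPM of 2 genes within each sample (vertical axes) in the 3 groups, with mean ± SD of 4 samples. The ratio of *Actn3* to *Actn2* separates the 3 groups, from a mean of 3.78 in normal to 6.34 in abnormal samples.

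Other genes of the Z-disc and its surroundings were taken from lists, and each list is given as counts beside the 9.35% of all genes called between abnormal and normal fibers. This share was 6.40% with TMM-type factors and 7.97% with the replicate block. Of 30 other Z-disc genes tested, 8 were called higher and 1 lower, and with TMM-type factors 5 were called higher and 1 lower. The calls included *Pdlim3*, an alpha-actinin-binding PDZ-LIM protein (0.88, adjusted p = 0.00071), *Mypn*, the partner of nebulin and alpha-actinin at the Z-disc (0.76, adjusted p = 0.0038), and *Cavin4* (0.60, adjusted p = 0.0026). *Myot*, myotilin, was the one called lower (-0.43, adjusted p = 0.022), and it was higher in normal than in young fibers (0.51, adjusted p = 0.037). *Tcap*, the titin cap, differed by -0.02 (95% interval -0.24 to 0.21), *Ldb3* by 0.21 (adjusted p = 0.061) and *Flnc* by 0.44 (adjusted p = 0.22).

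Among 17 titin-binding and M-band genes, 6 were called higher and 1 lower, with 2 higher and 1 lower under TMM-type factors. *Mybpc2*, the fast myosin-binding protein C, was higher by 0.69 (adjusted p = 0.00052) and *Nbr1*, a partner of the titin kinase region, by 0.72 (adjusted p = 0.013). *Fhl1*, a four-and-a-half LIM protein that binds titin, was measured at 312 to 634 TPM in normal, 124 to 203 TPM in abnormal and 216 to 283 TPM in young samples, again with young fibers between the aged groups. It was lower in abnormal than in normal fibers by -1.62 (adjusted p = 0.00071). *Ankrd23*, the third muscle ankyrin-repeat gene, had 932 to 1607 TPM in normal and 1081 to 1376 TPM in abnormal samples, far above *Ankrd1* and *Ankrd2*, and differed by -0.07 (95% interval -0.39 to 0.24).

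Of 12 thin-filament length and capping genes, 2 were called higher, *Klhl40* (0.58, adjusted p = 0.0025) and *Tmod1* (0.43, adjusted p = 0.021), and 1 lower, *Kbtbd13* (-0.68, adjusted p = 0.029). With TMM-type factors 1 was called higher and 1 lower, *Tmod1* lost its call (adjusted p = 0.11) and the list median turned from 0.19 to -0.021. With the replicate block 4 were called higher and 0 lower, and *Kbtbd13* lost its call (adjusted p = 0.052). Skeletal actin, *Acta1*, differed by 0.16 (95% interval -0.12 to 0.43). Of 18 integrin and costamere genes 5 were called higher and 0 lower, among them *Itga7* (0.55, adjusted p = 0.0090), *Vcl* (0.64, adjusted p = 0.0083) and *Itgb1* (0.47, adjusted p = 0.022), but with TMM-type factors 1 was higher, *Vcl*, and 1 lower. With the replicate block *Vcl* lost its call (adjusted p = 0.052). Of 14 genes of YAP-TEAD signalling, which acts through M-CAT elements, limma called 0 between abnormal and normal fibers with either scaling, and 2 had an unadjusted p under 0.05.

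**Figure D5:**
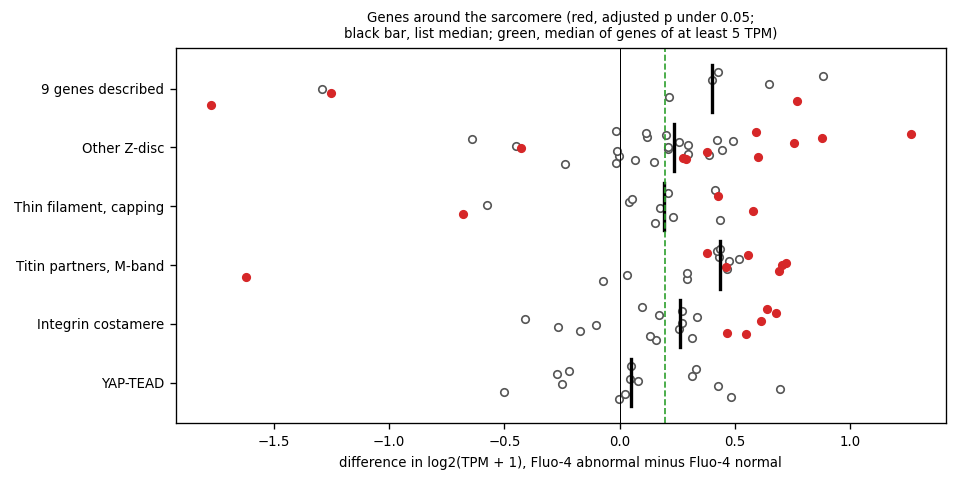
Difference in log2(TPM + 1) between Fluo-4 abnormal and Fluo-4 normal fibers (horizontal axis) for the genes of each list; red points have an adjusted p under 0.05, black bars are list medians and the dashed green line is the median over genes of at least 5 TPM. *Actn2* at -1.77 and *Fhl1* at -1.62 lie farthest to the left, and list medians run from 0.05 for YAP-TEAD genes to 0.435 for titin partners and M-band genes.

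Against young fibers, the counts stand beside 6.09% of all genes called higher and 2.41% lower in abnormal fibers, and 0.561% higher and 0.589% lower in normal fibers. With TMM-type factors 8.21% of all genes were called in abnormal and 1.52% in normal fibers. Of the 30 Z-disc genes, 10 were called higher and 0 lower in abnormal fibers, and 3 were called higher and 1 lower in normal fibers, with 7 higher and 0 lower and with 3 higher and 0 lower under TMM-type factors. *Ldb3*, which encodes ZASP, was called higher in both, by 0.51 (adjusted p = 0.00055) and 0.30 (adjusted p = 0.044). The titin and M-band list had 7 called higher and 0 lower in abnormal (5 and 2 with TMM-type factors), and 2 higher and 1 lower in normal fibers with either scaling. The thin-filament list had 2 higher and 2 lower in abnormal fibers (1 and 3 with TMM-type factors) and 0 higher and 1 lower in normal fibers. The costamere list had 1 called higher in abnormal fibers (1 higher and 1 lower with TMM-type factors) and, in normal fibers, 0 called by limma with 4 at an unadjusted p under 0.05 (1 higher with TMM-type factors). The YAP-TEAD list had 2 called higher in abnormal fibers, *Tgfb2* (0.65, adjusted p = 0.021) and *Amotl2* (1.07, adjusted p = 0.020), and 0 in normal fibers, with 4 at an unadjusted p under 0.05 (1 higher with TMM-type factors).

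The myosin heavy chain genes were compared in the same fit. *Myh4*, the IIb myosin heavy chain, was higher in abnormal than in normal fibers by 0.66 (adjusted p = 0.020), a call lost with TMM-type factors (0.45, adjusted p = 0.13). *Myh4* made up 98.9% to 99.7% of the summed TPM of *Myh1*, *Myh2*, *Myh4* and *Myh7* in abnormal, 93.7% to 99.2% in normal and 96.9% to 98.6% in young samples. *Myh1*, the IIx chain, was measured at 46.2, 542, 488 and 262 TPM in normal and at 64.5, 147, 48.5 and 44.3 TPM in abnormal samples, a difference of -1.81 that was not called (adjusted p = 0.087). Normal replicate 1 was thus as low in *Myh1* as the abnormal samples. With the *Myh4* share as a covariate, *Actn2* was still lower in abnormal than in normal fibers (-1.26, adjusted p = 0.016), *Ankrd2* was not called (-0.38, adjusted p = 0.61), *Csrp3* changed sign (0.04, adjusted p = 0.97), and *Ankrd1* (0.95, adjusted p = 0.034) and *Neb* (1.10, adjusted p = 0.035) were called higher. In these fiber pools, fewer fibers of a type and less RNA per fiber cannot be told apart.

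Fibers were freed with collagenase, and of 12 early-response genes that respond to such handling limma called 0 between abnormal and normal fibers (3 at an unadjusted p under 0.05). In abnormal against young fibers 3 were called higher, *Egr1*, *Atf3* and *Myc*, where 8.50% of all genes were called, and 9 had an unadjusted p under 0.05. In that comparison 11 of the 12 estimates were higher, with a median of 0.59 against 0.07 over all genes tested. The replicate block, which pairs these groups by number alone, called 5, where it called 11.4% of all genes. The summed level of the 12 genes was 1353 to 3528 TPM in normal, 2683 to 3793 TPM in abnormal and 1934 to 2512 TPM in young samples, and it was lowest in normal replicate 1. Of 12 regeneration and denervation genes, *Musk* (1.44, adjusted p = 0.0012) and *Chrna1* (0.55, adjusted p = 0.018) were called higher in abnormal than in normal fibers, and with TMM-type factors *Musk* kept its call and *Chrna1* lost it (adjusted p = 0.093). The replicate block called 3 of the 12, where it called 7.97% of all genes. Of 8 myotendinous genes, *Scx* was called higher (0.42, adjusted p = 0.031) and *Thbs4* lower (-1.29, adjusted p = 0.014). *Scx* lost its call with TMM-type factors (adjusted p = 0.27) and with the replicate block (adjusted p = 0.081), while *Thbs4* was called in both. The part of handling or of fiber ends in the values of *Ankrd1*, *Xirp1* and *Csrp3* was not tested.

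Markers of other cells were low beside the myofiber markers, whose 8 genes summed to 116526 to 155045 TPM. The 6 immune markers summed to 0.72 to 1.48 TPM in young, 5.20 to 15.4 TPM in normal and 7.43 to 11.5 TPM in abnormal samples, and *Lyz2* was called higher in both aged groups. *Ptprc* and *Adgre1* were at 0 in every young sample. The 6 endothelial markers summed to 3.37 to 31.3 TPM over all samples, the 6 fibroblast markers to 13.6 to 82.4 TPM, the 6 Schwann markers to 3.59 to 16.1 TPM and the 6 satellite cell markers to 1.25 to 4.03 TPM. The 6 smooth muscle markers summed to 3.17 to 67.2 TPM, the 6 adipocyte markers to 8.28 to 109 TPM with *Adipoq*, *Plin1*, *Cidec* and *Lep* at 0 in every sample, and the 6 erythroid markers to 33.1 to 482 TPM. Normal replicate 2, the highest sample for *Actn2* and *Ankrd2*, was the highest of the 12 for 6 of these 8 lists, and its part in those values was not tested beyond leaving it out. Without it *Ankrd2* was no longer called between the aged groups, as given above, and *Actn2* was.

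The genes most like each of the 9 across the 12 samples, by Pearson correlation of log2(TPM + 1) among 5994 genes of at least 5 TPM, are given as a description, since all 12 samples share the group differences. *Actn2* was closest to *Got1*, cytosolic aspartate aminotransferase (r = 0.989), and *Acadvl*, very-long-chain acyl-CoA dehydrogenase (r = 0.986). *Ankrd2* was closest to *Cd36*, a fatty acid carrier (r = 0.934), and *Egln3*, a HIF prolyl hydroxylase (r = 0.919), while *Csrp3* was closest to *Myot* (r = 0.915) and *Iscu* (r = 0.898). *Actn3* was closest to *Rpl4* (r = 0.982) and *Abcf2* (r = 0.979), and *Neb* to *H1f0* (r = 0.956) and *Naa50* (r = 0.953). *Xirp1* was closest to *Flnc*, filamin C (r = 0.965), and *Klhl41* (r = 0.964), and *Xirp2* to *Ulk2* (r = 0.970) and *Tsc1* (r = 0.969). *Ankrd1* was closest to *Amy1* (r = 0.948) and *Mib1* (r = 0.924), and *Ttn* to *Dkc1* (r = 0.925) and *Ahcyl1* (r = 0.917). Among the 9 genes themselves the highest r was 0.83, between *Actn3* and *Xirp1*, and the lowest was -0.71, between *Actn2* and *Actn3*.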

How the data were processed

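RNA of 12 samples of isolated EDL fibers was measured. The authors made SMART-Seq v4 libraries from 10 ng of RNA, used DRAGEN 4.3 with GRCm39 for alignment, and deposited 1 table of TPM per sample. Each file held 55487 lines, and 114 symbols on several lines were summed. TPM of each sample summed to 1000000, and depth is unknown. Groups came from the sample titles. Protein-coding and mitochondrially-encoded genes with a group mean of at least 0.02 TPM were tested as log2(TPM + 1) in 1 linear model of the 3 groups with limma 3.58.1 (variance trend, R 4.3.3) and Benjamini-Hochberg adjustment. Ratios were tested by exact permutation. Sequences were matched with Python 3.11.15, Biopython 1.88 and BLAST 2.17.0 against GENCODE vM39.

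The members, the lists and the rule for named genes were chosen with earlier results of these data known. Named were the 9 genes, myosin heavy chains, *Ankrd23*, *Tcap*, *Ldb3*, *Flnc* and *Acta1*, at most 3 genes of each list (those of lowest p between abnormal and normal fibers), and the 2 genes most like each of the 9. *Amotl2*, *Atf3*, *Myc*, *Lyz2* and *Ctsf* were named outside this rule after their values were seen. The level of 1 marker gene is not reported here.

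The alternatives tried were the replicate number as a block, a fit of 2 groups only, each sample left out in turn, sample weights, the *Myh4* share in the model, TPM corrected for a spline on GC and length (5 degrees of freedom, with and without the block), scaling by TMM-type factors (30% and 5% trimmed) or to the total without mitochondrially-encoded genes, a filter of 5 TPM or none, all annotated genes, and a pseudocount of 0.1. TMM-type factors with the block were added after the data were seen. Whether equal numbers pair the aged samples was checked on 3035 genes: the deviations from the group means had r of 0.55, 0.48, 0.48 and 0.34 where the numbers were equal and from -0.47 to 0.30 where they were not, and the numbers were read as pairs. Young samples shared only a number (r from -0.13 to 0.27). Tested on simulated data of abnormal against normal fibers with 14427 genes and 200 changed, the fit recovered 100% of 2-fold and of 4-fold changes, and 5.21% of its calls were unchanged genes. The changed genes were drawn only from those of about 5 TPM or more. The simulated noise followed a smooth trend of variance on level, without each gene's own spread and without pairs. The simulation therefore does not show that an uncalled gene of lower level or wider spread lacks a 2-fold change.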

Additional observations from a re-analysis of the deposited data

Results flagged for a closer look

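*Actn2* was set apart because its changes against young fibers ran in opposite directions in the aged groups: -0.86 in Fluo-4 abnormal and 0.91 in Fluo-4 normal fibers, both called. The test of their difference is the comparison of abnormal with normal fibers (-1.77, adjusted p = 0.00049 by limma), and it was lower in abnormal fibers in 4 of 4 pairs. *Ankrd1* in young replicate 4, at 14.8 TPM against 8.40 to 9.31 TPM in the other young samples, lay far from its group, with a gap of 0.858 of the group's range. Without this sample *Ankrd1* was higher in abnormal than in young fibers by 1.70 (adjusted p = 0.0031). Of the 39 groups of 4 values checked this was the only such sample. Chance gives about 1 such group in every 20 checked, so 1 in 39 is no more than chance gives.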

How the results depend on the processing

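Of the 27 differences of single genes, *Actn2* between abnormal and normal fibers and *Ankrd1* between abnormal and young fibers were called under each of the 21 alternatives run. The number of the 9 genes called between abnormal and normal fibers was 1 with only these 2 groups and 6 with the replicate block and the GC and length trend removed. Between normal and young fibers it was 0 without the filter and with only these 2 groups, 1 with all annotated genes and with the *Myh4* share, 4 with sample quality weights and with TMM-type factors and the block, and 5 with the block and the trend removed. Leaving out 1 sample gave 2 to 4, 1 to 4 and 0 to 4 of the 9 genes called between abnormal and normal, abnormal and young, and normal and young fibers, and 661 to 1452, 604 to 1220 and 54 to 207 genes called among all tested.

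Among all genes tested, calls between abnormal and normal fibers numbered 566 with only these groups, 820 with the *Myh4* share and 551 with TMM-type factors and the block, and calls among the 5 lists around the sarcomere fell to 13 with TMM-type factors, from 24. Calls between normal and young fibers numbered 266 at 5 TPM, 69 with only these groups, 323 with the trend removed, 358 with weights, and, with the block, 320 alone, 490 with the trend removed and 371 with TMM-type factors. Among the 9 genes, the replicate block changed no other call between abnormal and normal fibers than those given for *Neb*, *Xirp1* and *Ankrd2*. Ratios tested as pairs under the block cannot go below p = 0.125, and their exact paired differences were 2.56, 1.47 and -1.09 for *Actn3* to *Actn2*, -1.69 and -1.89 for *Ankrd2* to *Ankrd1* and 1.61 and 1.15 for *Xirp1* to *Xirp2*.

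Signs turned for genes that were not called. *Csrp3* between abnormal and normal fibers was 0.043 with the *Myh4* share, and *Ankrd1* was -0.047 without normal replicate 1 (-0.047 to 0.39 over the samples left out). Between abnormal and young fibers *Ttn* was -0.0058 with TMM-type factors, with or without the block, -0.12 with the trend removed, with or without the block, and -0.070 without abnormal replicate 2 (-0.070 to 0.44 over the samples left out). *Ankrd2* was 0.26 with the *Myh4* share and 0.073 without abnormal replicate 3 (-0.43 to 0.073 over the samples left out), and *Xirp2* was 0.15 with the *Myh4* share. The cause was not tested. Leaving out 1 sample moved the log2 ratio of *Ankrd2* to *Ankrd1* between -2.06 and -1.25 (abnormal and normal) and between -2.26 and -1.45 (abnormal and young), that of *Xirp1* to *Xirp2* between 1.04 and 1.34 (normal and young) and that of *Neb* to *Ttn* between -0.035 and 0.18 (normal and young). Depth is unknown, so no limit from counting was set.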
